A study of Danio rerio with 9 samples.

Results

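The D3 group was 3 of 9 RNA-seq libraries of zebrafish (Danio rerio) intestine, chosen by their titles, and it was set against the other 6 libraries as one, 3 coded SBM and 3 coded FM. The question was which genes set D3 apart from both other groups at once. The series title names enteritis caused by soybean meal and β,β-dimethylacryloyl shikonin, an ester of a red plant naphthoquinone, as the compound tested against it. All groups share the species and the tissue, and the labels leave the 3 codes unexplained and give no strain, age, sex, diet, dose or time. Whether the 3 replicates of a group were separate fish, pools or repeats of 1 sample is unstated, so the p-values may in part reflect technical spread alone. Total counts ran from 34436497 to 36203230 per library, and 22961 to 24472 genes had at least 1 count.

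The intestine of fish takes up peptides and amino acids through enterocytes of its anterior part, and whole proteins and bile acids through lysosome-rich and ileal-type enterocytes farther back. Beneath this epithelium lie connective tissue, vessels and a coat of smooth muscle, which relaxes when nitric oxide activates soluble guanylate cyclase. Diets rich in soybean meal are known to inflame this tissue in many fish species, and plant naphthoquinones such as shikonin are known for acting on inflammatory signalling in mammalian cells.

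In short, no gene of D3 passed the test against both other groups. In simulated counts that test missed changes of 2-fold, so the lack of calls does not show that the groups were alike. The clearest values were on the low side: D3 held almost no transcript of the uncharacterised gene si:dkey-18p12.4, and some genes for soluble guanylate cyclase, smooth muscle, collagen, peptide uptake and the period proteins of the clock were lower in every D3 library than in each library of the other groups. On the high side, the complement gene c7b and 5 genes for proteasome subunits lay above every library of SBM and FM. Scaled by library size alone, none of these 5 stayed above. Of the 276 genes below every other library, 140 stayed below under that scaling. Among them were si:dkey-18p12.4, gucy1b3, cnn1b, col4a1, slc15a2 and per1b, while gucy1a3, synpo2b, col6a1 and per2 overlapped the other groups. Of 26983 genes in the table, 19450 had enough counts to be tested, and edgeR called 0 of them (0%) in D3 against SBM and FM together, with a smallest adjusted p of 0.666. At an unadjusted p under 0.05 there were 503 genes higher in D3 (2.59%) and 804 lower (4.13%). DESeq2 called 41 genes in the same comparison, and limma-voom called 0.

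Each pair of groups was also contrasted in the same fit, and the contrasts with D3 share its libraries. Between D3 and SBM, edgeR called 0 genes (smallest adjusted p 0.781), 145 were higher (0.746%) and 257 lower (1.32%) at an unadjusted p under 0.05, and DESeq2 called 5. Between D3 and FM, edgeR called 0 genes (smallest adjusted p 0.320), 1565 were higher (8.05%) and 1389 lower (7.14%) at an unadjusted p under 0.05, and DESeq2 called 909. Between SBM and FM, edgeR called 0 genes (smallest adjusted p 0.541), 1075 were higher in SBM (5.53%) and 663 lower (3.41%) at an unadjusted p under 0.05, and DESeq2 called 113. Limma-voom called 0 genes in each pair. Across all tested genes the median log2 fold change was 0.06 for D3 over both groups, 0.03 for D3 over SBM and 0.04 for D3 over FM, so the list medians below are read beside values near 0. For D3 over both groups, 55.4% of all tested genes lay above 0 and 44.6% below. Counts in the lists below are read beside these shares, and beside 2.59% higher and 4.13% lower at an unadjusted p under 0.05.

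Libraries of D3 and SBM differed among themselves in transcripts of neighbouring organs. The summed level of 20 ovary and oocyte genes, such as the egg coat gene zp3b, was 300, 305 and 4545 CPM (counts scaled to library size) in D3 libraries 1 to 3, against 4299, 215 and 590 in SBM and 127, 162 and 59.4 in FM. Summed over 23 hepatocyte genes, the level was 22071, 77348 and 1326 CPM in D3, against 4159, 51008 and 481 in SBM and 1925, 4092 and 670 in FM. Oocyte transcripts were thus high in D3 library 3 and SBM library 1, and liver transcripts in D3 libraries 1 and 2 and SBM library 2. No gene of the 2 lists was at 0 in any library, and none had its 3 D3 libraries all above or all below the other 6.

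Over all tested genes, D3 library 3 correlated more closely with SBM library 1 (Spearman 0.975) than with D3 library 1 (0.853) or D3 library 2 (0.865), while D3 libraries 1 and 2 correlated at 0.969. These are correlations over genes, which are not independent. Results below that move with these libraries are given without them, and the part of those organs in a result was not tested. The enterocyte gene vil1, for the brush border protein villin, was present in all 9 libraries. It was at 1648, 1245 and 802 CPM in D3, 1037, 1348 and 955 in SBM, and 1680, 1799 and 1809 in FM. Exocrine pancreas transcripts were abundant too. Summed over 19 genes, they were at 115409, 73868 and 118397 CPM in D3, 110339, 180866 and 92132 in SBM, and 199430, 148823 and 183621 in FM. In every library that was above the summed level of the absorptive enterocyte list. In bulk tissue, fewer cells of a type and less RNA per cell cannot be told apart.

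**Figure D1:**
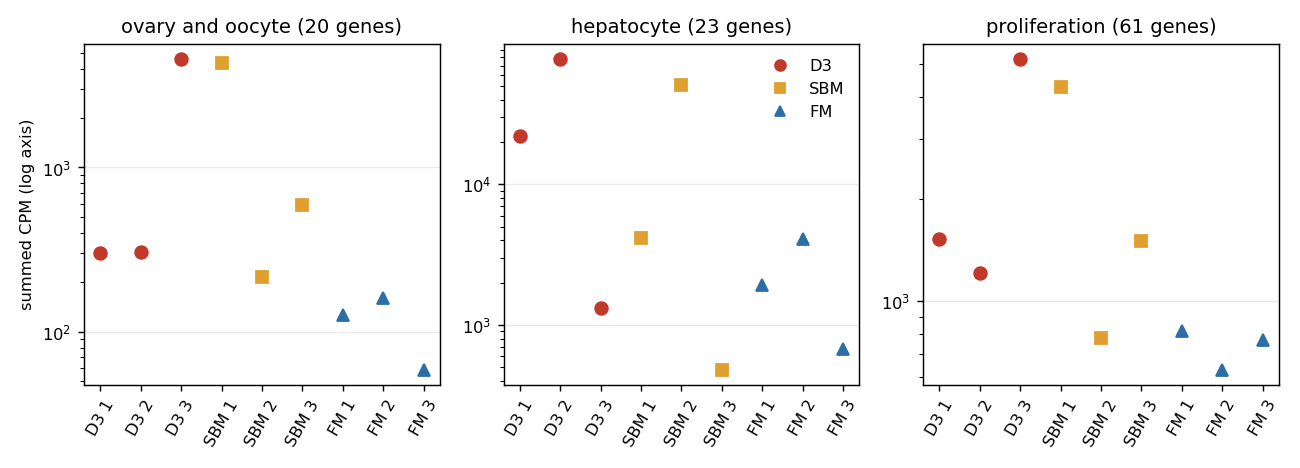
Summed CPM of the ovary and oocyte, hepatocyte and proliferation lists in each library (log axis; 1 point per library, D3 left, then SBM, then FM). Oocyte genes reach 4545 CPM in library 3 of D3 and 4299 CPM in library 1 of SBM, and hepatocyte genes reach 77348 CPM in library 2 of D3 and 51008 CPM in library 2 of SBM.

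Complete separation was used to describe which genes set D3 apart: a gene counted when its 3 D3 libraries lay all above, or all below, each of the 6 others in CPM. By this rule 145 genes lay above (0.746% of those tested) and 276 below (1.42%). Any choice of 3 libraries separates some genes by chance, and these shares were not compared with those of other choices. The rule therefore describes genes and does not test whether D3 differs. Counts of separated list members below are read beside these shares. The 276 lower genes had a median log2 fold change of −0.75, ranging down to −9.86, and the 145 higher genes one of 0.50, ranging up to 5.62. Gaps were narrow: the lowest D3 library was more than 1.5-fold above the highest other library for 3 genes, and the highest D3 library more than 1.5-fold below the lowest other library for 18, of which 6 passed 2-fold.

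Among the 276 lower genes, SBM and FM overlapped in 217, and in 58 (21.0%) every SBM library lay below every FM library, so that the 3 groups formed a staircase with D3 lowest. The opposite order of SBM and FM held in 1. Of all tested genes, 10.3% had SBM below FM without overlap and 9.56% had SBM above FM. Among the 145 higher genes, SBM and FM overlapped in 126, SBM lay above FM in 9 and below it in 10.

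Scaling mattered for the small differences. With library size alone and no TMM factor, 162 genes lay above (0.833%) and 215 below (1.11%), among them 60 of the 145 and 140 of the 276. With relative log expression factors there were 178 above (0.915%) and 266 below (1.37%), among them 137 and 246. Library size alone moved the median log2 fold change of all genes to 0.19. Without D3 library 3 and SBM library 1, the pair high in oocyte genes, the remaining 7 libraries separated 1326 genes above (6.82%) and 1879 below (9.66%), where fewer libraries had to be cleared.

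The deepest difference was in si:dkey-18p12.4, a gene the files and RefSeq leave without a described role. It had 2, 2 and 0 counts in the D3 libraries, which is 0.0554, 0.0548 and 0 CPM, against 7.86, 38.2 and 105 CPM in SBM and 38.5, 11.7 and 27.5 in FM. D3 thus held a total of 4 counts where the other 6 libraries held 8299. Per library size, the other libraries exceeded D3 by 1140-fold, with an exact 95% interval of 445 to 4185 that covers counting error only. Against SBM alone the excess was 1482-fold (578 to 5441), and against FM alone 728-fold (284 to 2674). Log2 fold changes are D3 over the mean of SBM and FM, given in brackets below as value ± SE for 3 against 6 libraries. That of si:dkey-18p12.4 was −9.86 ± 1.30, with an edgeR adjusted p of 0.666 and a DESeq2 adjusted p of 1.7e-17. The values of SBM and FM were themselves widely spread, with SBM library 1 the lowest of the 6.

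The gene LOC100329579, likewise without a described role, was at 38.0, 44.1 and 55.5 CPM in D3, against 268, 310 and 367 in SBM and 142, 406 and 519 in FM. No D3 library came near the other groups, which overlapped each other. Its log2 fold change was −2.87 ± 0.43.

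Genes with a described role followed at smaller size. Levels of gucy1b3, the beta subunit of soluble guanylate cyclase, were 2.85, 2.55 and 3.09 CPM in D3, against 5.88, 6.43 and 4.66 in SBM and 7.28, 12.6 and 10.8 in FM, a log2 fold change of −1.43 ± 0.25. The gene esm1, for a proteoglycan secreted by endothelial cells, was at 3.10, 2.601 and 2.49 CPM in D3, against 3.89, 4.28 and 7.06 in SBM and 11.5, 9.99 and 10.1 in FM (−1.42 ± 0.26). Both genes formed the staircase, with D3 lowest, SBM between and FM highest, and no overlap at either step.

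Levels of slc15a2, a proton-coupled peptide transporter, were 541, 417 and 345 CPM in D3, against 636, 730 and 624 in SBM and 873, 1123 and 1062 in FM (−0.92 ± 0.21). It had the same stepwise order. The gene gig2g, a member of a fish gene family known for induction by virus and interferon, was at 9.88, 6.98 and 6.13 CPM in D3, against 12.6, 16.0 and 21.6 in SBM and 16.2, 23.2 and 24.0 in FM (−1.29 ± 0.26). SBM and FM overlapped for gig2g, while D3 lay below both. Levels of pip5k1bb, a kinase that makes the membrane lipid phosphatidylinositol bisphosphate, were 11.5, 15.7 and 20.9 CPM in D3, against 28.3, 39.9 and 31.8 in SBM and 35.5, 28.8 and 39.1 in FM (−1.08 ± 0.23). For this gene SBM and FM were close together and D3 alone stood apart.

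Other lower genes named by the same rule were stoml3b, a membrane protein of the stomatin family (−1.39 ± 0.28), creb3l1, a membrane-bound transcription factor of secretory cells (−1.08 ± 0.23), and the zinc finger transcription factor gene glis3 (−1.91 ± 0.40). The photoreceptor phosphodiesterase gene pde6b (−2.82 ± 0.57) was at low levels throughout, at 0.387, 0.164 and 0.0719 CPM in D3, against 1.31, 1.53 and 0.646 in SBM and 1.71, 2.05 and 1.88 in FM. LOC100535208 (−1.77 ± 0.34) and si:ch211-69l10.2 (−1.37 ± 0.27) have no described role in the files. All 14 lower genes named by the rule stayed separated under both other scalings.

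On the high side c7b led, a gene for complement component C7, which joins the pore that complement builds in membranes. It was at 4.82, 201 and 31.9 CPM in D3, against 1.14, 1.60 and 3.35 in SBM and 1.19, 1.21 and 1.42 in FM. Every D3 library lay above every other library, but the D3 values spanned a wide range, and D3 library 1 came close to SBM library 3. Its log2 fold change of 5.62 ± 0.92 became 3.50 when D3 library 2 was left out. D3 library 2, with 77348 CPM of hepatocyte genes, had the highest c7b level, and SBM library 2, with 51008 CPM of them, had 1.60 CPM of c7b. The part of liver transcripts in c7b was not tested.

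The gene si:ch1073-67j19.1, which RefSeq names teni.1, was at 16.5, 23.1 and 8.19 CPM in D3, against 5.104, 3.75 and 2.63 in SBM and 2.77, 3.86 and 1.197 in FM (2.33 ± 0.42). The gene nfil3-5, of a family of transcriptional repressors that bind the same sites as clock output activators in mammals, was at 9.05, 6.10 and 8.24 CPM in D3, against 2.98, 5.32 and 3.37 in SBM and 4.02, 3.77 and 4.88 in FM (0.94 ± 0.25). In both genes SBM and FM overlapped and D3 stood above them.

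The gene slc35d1a, for a nucleotide sugar transporter of the endoplasmic reticulum, had tight values, at 4.23, 4.63 and 4.36 CPM in D3, against 3.07, 3.04 and 2.44 in SBM and 1.75, 1.87 and 2.103 in FM (0.92 ± 0.20). It formed a staircase upward, with FM lowest. Levels of ppa1b, an inorganic pyrophosphatase, were 104, 103 and 62.8 CPM in D3, against 55.7, 49.3 and 52.7 in SBM and 59.8, 55.4 and 58.4 in FM (0.71 ± 0.18). Here D3 library 3 lay just above FM while D3 libraries 1 and 2 were far above, and the log2 fold change was 0.10 without the 3 libraries high in hepatocyte genes, which leaves D3 library 3 alone.

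The mitotic genes cenpf (1.15 ± 0.28), pbk (1.11 ± 0.27) and ckap2l (1.096 ± 0.25), for a kinetochore protein, a mitotic kinase and a spindle protein, also lay above both groups. So did trmt1l, of a tRNA methyltransferase family (1.01 ± 0.26), dad1, a subunit of the enzyme that attaches sugar chains to new proteins (0.70 ± 0.19), and nrd1b, the protease nardilysin (0.76 ± 0.21). The remaining named genes were zgc:113340, which RefSeq names sertad3 (2.19 ± 0.55, or 1.15 without D3 library 3), and si:ch211-127b11.1, which it names plxnb2a.2 (1.12 ± 0.29). Under library size alone ckap2l and nrd1b overlapped the other groups, nrd1b also under relative log expression factors. The other 11 stayed separated. EdgeR's adjusted p was 0.666 for each of these 27 named genes.

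**Figure D2:**
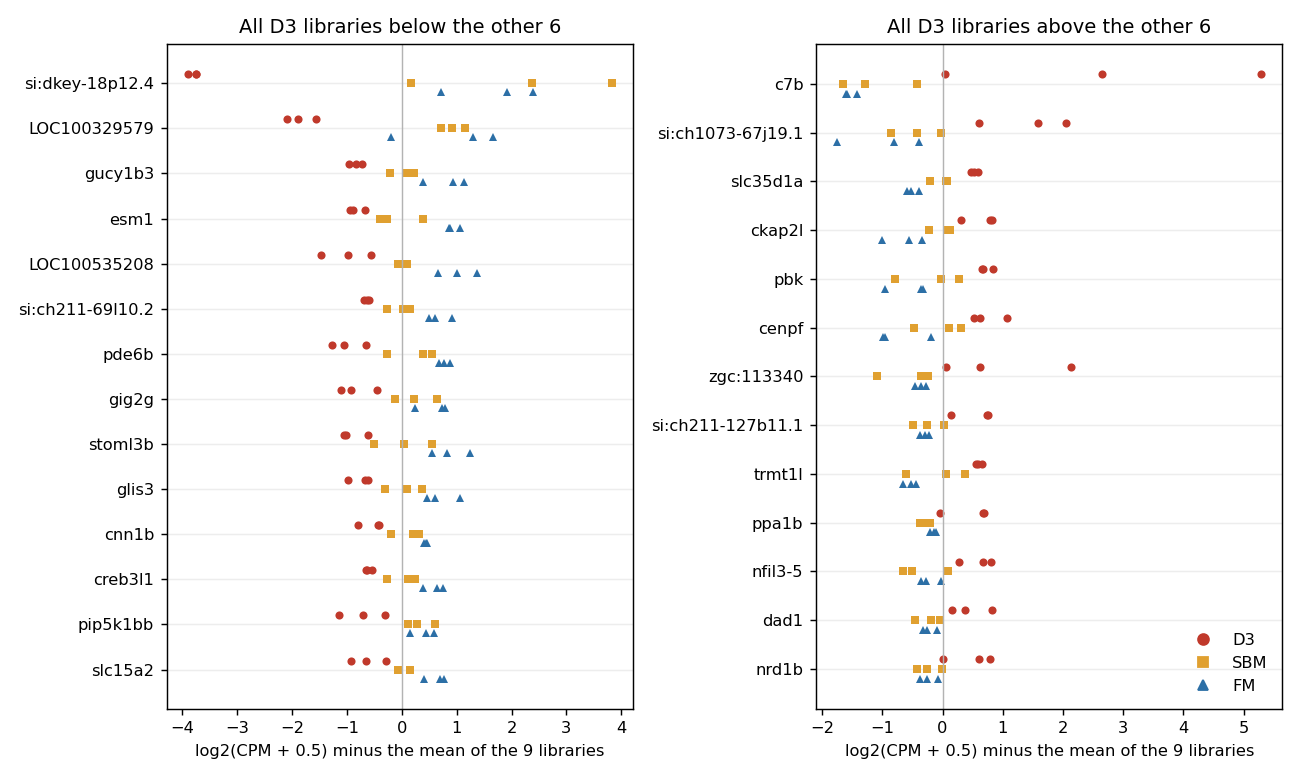
The 14 leading genes with all D3 libraries below the other 6 (left) and the 13 with all D3 libraries above (right), each point 1 library on log2(CPM + 0.5) minus the gene's mean over 9 libraries. D3 points lie to one side for every gene, by a wide margin only for si:dkey-18p12.4 and LOC100329579.

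Proteasome subunit genes lay higher in D3 as a block. The proteasome is the barrel-shaped protease that degrades ubiquitin-tagged proteins. All 37 tested members of 38 listed had a log2 fold change above 0, as did 55.4% of all tested genes, and the median was 0.38 against both groups, 0.35 against SBM and 0.43 against FM. Of the 37, 10 had an unadjusted p under 0.05, all higher, beside 2.59% of all tested genes on the high side. Above every other library lay 5, beside 0.746% of all tested genes: psma6a, psmb5, psmd14, psmd7 and psmd8. None passed edgeR's adjusted threshold.

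The gene psma6a, for a subunit of the core ring, was at 50.5, 42.8 and 41.5 CPM in D3, against 38.3, 28.5 and 35.4 in SBM and 29.3, 22.9 and 30.6 in FM (0.55 ± 0.17). The lid subunit gene psmd14, which removes ubiquitin chains, was at 57.2, 51.3 and 43.6 CPM in D3, against 39.4, 31.2 and 42.9 in SBM and 36.6, 35.6 and 36.9 in FM (0.45 ± 0.16). D3 library 3 was the lowest of D3 for both, and for psmd14 it lay just above SBM library 3. The core subunit gene psma3 overlapped, at 149, 116 and 75.2 CPM in D3, against 70.14, 59.8 and 86.5 in SBM and 80.4, 58.3 and 76.3 in FM (0.66 ± 0.24, or 0.41 without D3 library 1).

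The list's mean level, centred on the 9 libraries, was 0.43, 0.24 and 0.05 log2 units in D3, against −0.05, −0.22 and 0.02 in SBM and −0.07, −0.32 and −0.08 in FM. The list was highest in D3 libraries 1 and 2, which were also high in hepatocyte genes, while SBM library 2, also high in them, was among the lowest. Whether liver transcripts bear on this list was not tested. Without D3 library 1 the median was 0.24. Without all 3 libraries it was −0.08, and psma3 (−0.064) and psma8 (−0.24) lay below 0. Without the pair high in oocyte genes, 28 of 37 lay above every other library, where 6.82% of all tested genes did, and the median was 0.47. This setting drops D3 library 3, the lowest of D3 in this list, which makes separation easier. Under library size alone none of the 5 stayed separated, and 1 other member was.

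Genes of oxidative phosphorylation, the respiratory chain and the mitochondrial ATP synthase, lay slightly higher than in SBM and near the level of FM. Of 84 tested, 65 were above 0, where 55.4% of all tested genes were, with a median of 0.12 against both groups, 0.25 against SBM and −0.01 against FM. An unadjusted p under 0.05 was reached by 3 higher and 1 lower of the 84, beside 2.59% and 4.13% of all tested genes. Levels of atp5g1, a membrane ring subunit of ATP synthase, were 252, 194 and 175 CPM in D3, against 153, 134 and 145 in SBM and 169, 108 and 131 in FM (0.57 ± 0.20). The gene cox6a1, for a cytochrome c oxidase subunit, was at 86.1, 79.9 and 69.1 CPM in D3, against 61.2, 54.0 and 58.4 in SBM and 62.1, 55.0 and 65.6 in FM (0.40 ± 0.14). These 2, with atp5ia and ndufa1, were the 4 members above every other library (0.746% of all tested genes), and library size alone gave 14 (0.833%). The subunit gene cox4i2, which replaces cox4i1 at low oxygen in mammals, had the opposite direction (−0.71 ± 0.27). The list median was −0.02 without D3 library 1, and −0.23 without the 3 libraries high in hepatocyte genes.

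**Figure D3:**
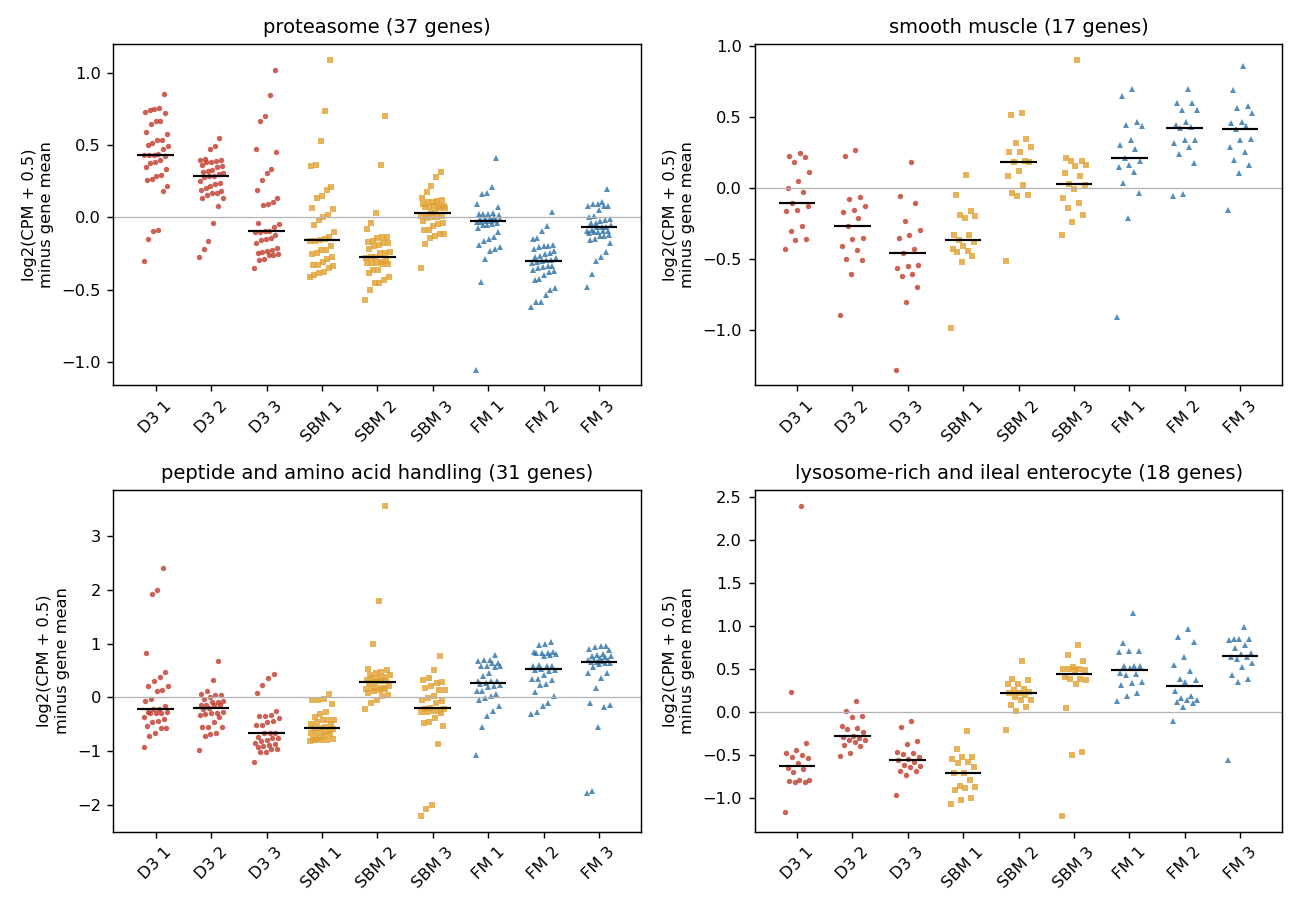
Members of 4 lists by library, on log2(CPM + 0.5) minus each gene's mean; each point is 1 gene and the black bar is the library's median. Proteasome genes are highest in D3 libraries 1 and 2; in the other 3 lists the bars of all D3 libraries and of SBM library 1 lie below 0.

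Smooth muscle genes lay lower in D3 than in the mean of SBM and FM. Of 17 tested of 20 listed, 15 had a log2 fold change below 0 where 44.6% of all tested genes did. An unadjusted p under 0.05 was reached by 8, all lower, beside 4.13% of all tested genes on the low side. The median was −0.42 against both groups, −0.30 against SBM and −0.71 against FM. The list's mean level, centred on the 9 libraries, was −0.07, −0.32 and −0.47 in D3. It was −0.36, 0.17 and 0.06 in SBM, and 0.20, 0.39 and 0.40 in FM. SBM library 1 thus lay below D3 libraries 1 and 2. Levels of cnn1b, calponin of the contractile apparatus, were 41.6, 42.4 and 32.1 CPM in D3, against 49.4, 70.27 and 65.3 in SBM and 77.7, 76.6 and 75.2 in FM (−0.83 ± 0.18). The gene lmod1b, for the actin filament nucleator leiomodin, was at 5.73, 5.17 and 5.22 CPM in D3, against 6.39, 8.65 and 6.82 in SBM and 11.5, 9.81 and 7.76 in FM (−0.64 ± 0.21). With synpo2b (−0.74 ± 0.27) these were the 3 members below every other library, beside 1.42% of all tested genes.

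The smooth muscle actin gene acta2 overlapped, at 580, 417 and 387 CPM in D3, against 437, 722 and 598 in SBM and 660, 863 and 871 in FM (−0.57 ± 0.24). SBM library 1 was the library within the D3 range there, as it was for myl9a (−0.58 ± 0.20), while tagln (−0.42 ± 0.22) overlapped SBM libraries 1 and 3. Without SBM library 1 and D3 library 3, 7 of 17 lay below every other library, where 9.66% of all tested genes did. This setting drops SBM library 1, the library within the D3 range, so the count does not show separation from SBM. Under library size alone 2 of the 3 separated members stayed so.

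Connective tissue genes had 6 of 30 tested members below every other library, beside 1.42% of all tested genes. Their differences were all small: col6a1, col6a2, col4a1, col18a1a, col5a1 and the intermediate filament gene vim. In all, 24 of 30 were below 0, where 44.6% of all tested genes were. The median was −0.23 against both groups, −0.11 against SBM and −0.36 against FM. The list's mean level, centred on the 9 libraries, was 0.11, −0.37 and −0.09 in D3. It was 0.07, 0.23 and −0.11 in SBM, and 0.07, −0.03 and 0.13 in FM, so D3 overlapped both groups. The abundant members col1a1b (−0.11 ± 0.27), highest in D3 library 1, and fn1b (0.50 ± 0.62) overlapped too. Levels of col6a1, a chain of the microfibrillar collagen VI, were 172, 178 and 162 CPM in D3, against 186, 214 and 223 in SBM and 279, 275 and 335 in FM (−0.54 ± 0.16). The gene col4a1, for a basement membrane chain, was at 16.3, 13.6 and 15.2 CPM in D3, against 18.2, 24.4 and 17.0 in SBM and 21.6, 21.3 and 24.4 in FM (−0.49 ± 0.17). The values of col6a1 formed the staircase, and col4a1 did not separate SBM from FM. Library size alone kept 2 of the 6.

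Both subunits of soluble guanylate cyclase lay below every other library. Levels of gucy1a3, the alpha subunit, were 3.10, 4.27 and 3.83 CPM in D3, against 5.35, 5.09 and 4.62 in SBM and 6.03, 7.30 and 6.57 in FM (−0.63 ± 0.20), beside the values of gucy1b3 above. The gene asl, for argininosuccinate lyase, which makes the arginine that nitric oxide synthases use, was at 12.0, 12.9 and 14.5 CPM in D3, against 14.9, 20.2 and 17.9 in SBM and 23.9, 23.3 and 25.7 in FM (−0.66 ± 0.16). D3 was lowest, SBM next and FM highest for these 3, without overlap. In the list of nitric oxide and guanylate cyclase genes these were 3 of 16 tested, where 1.42% of all tested genes lay below every other library. Below 0 lay 11 of the 16, beside 44.6% of all tested genes. The median was −0.27 against both, −0.31 against SBM and −0.24 against FM. Library size alone kept asl and gucy1b3.

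Among 21 tested endothelial genes 17 lay below 0, where 44.6% of all tested genes did, with a median of −0.29, or −0.15 without D3 library 3. Below every other library lay 2 of the 21, beside 1.42% of all tested genes. Besides esm1, cdh5, the adhesion protein of endothelial junctions, lay below every other library, at 7.67, 7.39 and 6.01 CPM in D3, against 8.25, 10.4 and 9.18 in SBM and 8.93, 9.84 and 7.86 in FM (−0.37 ± 0.18). For cdh5, D3 library 1 lay just below FM library 3. Library size alone kept esm1 and not cdh5. In this list esm1 alone had an unadjusted p under 0.05. The growth factor receptor genes flt1 (−0.49 ± 0.22) and kdrl (−0.34 ± 0.20) overlapped between the groups.

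**Figure D4:**
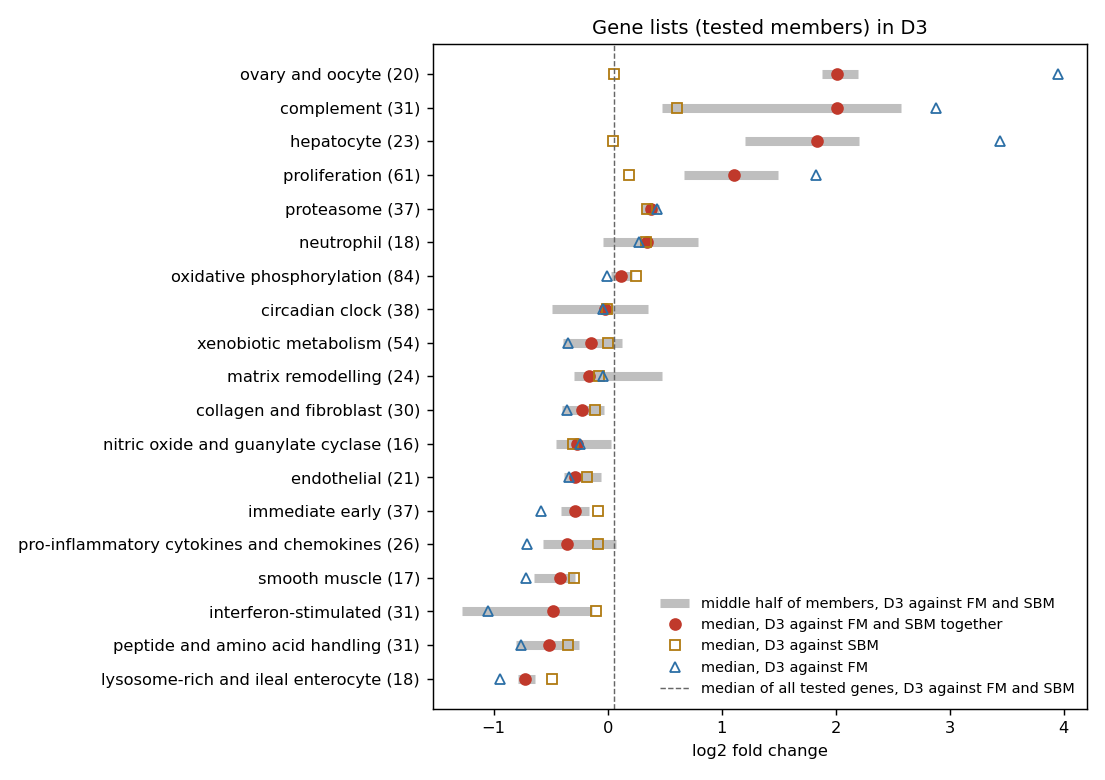
Median log2 fold change of each list in D3 against SBM and FM together (filled circles), against SBM (squares) and against FM (triangles), with the number of tested members in brackets; grey bars span the middle 50% of members. The proteasome medians lie close together at 0.35 to 0.43, while the proliferation median is 1.83 against FM and 0.19 against SBM.

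Lists of the absorbing epithelium gave no common direction, and those for peptide handling and for lysosome-rich and ileal cells were the ones with the lowest medians. The absorptive enterocyte list had 15 of 23 below 0 and a median of −0.22 against both, 0.07 against SBM and −0.70 against FM, and its median was −0.01 without SBM library 2. Lipid absorption genes had 19 of 40 below 0 and a median of 0.03 against both, 0.24 against SBM and −0.23 against FM. Carbohydrate digestion genes had 10 of 20 below 0 and a median of −0.01 against both. Below 0 lay 44.6% of all tested genes.

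Peptide and amino acid genes lay lower in D3 than in the mean of SBM and FM. Of 31 tested, 25 lay below 0, where 44.6% of all tested genes did. An unadjusted p under 0.05 was reached by 15, all lower, beside 4.13% of all tested genes on the low side. The median was −0.51 against both, −0.35 against SBM and −0.76 against FM, and −0.58 for SBM over FM. The list's mean level, centred on the 9 libraries, was 0.06, −0.23 and −0.60 in D3. It was −0.53, 0.42 and −0.27 in SBM, and 0.25, 0.49 and 0.40 in FM. D3 libraries 1 and 2 thus lay above SBM libraries 1 and 3. Levels of slc6a19b, the sodium-coupled carrier of neutral amino acids, were 1038, 912 and 695 CPM in D3, against 1046, 1511 and 1090 in SBM and 1523, 2274 and 2047 in FM (−0.80 ± 0.24). D3 library 1 and SBM library 1 were almost level, so its separation was marginal. The gene mep1a.1, for the brush border protease meprin, was at 574, 430 and 361 CPM in D3, against 527, 971 and 510 in SBM and 1055, 1391 and 1302 in FM (−1.01 ± 0.28). It overlapped SBM, as did the glutamate transporter gene slc1a1 (−0.98 ± 0.26) and the aminopeptidase gene anpepb (−0.80 ± 0.28).

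Lysosome-rich and ileal enterocyte genes had 17 of 18 below 0, 10 of them with an unadjusted p under 0.05. Of all tested genes 44.6% lay below 0, and 4.13% reached that p on the low side. The list median was −0.73 against both, −0.49 against SBM and −0.95 against FM. None of the 18 was separated. Levels of fabp6, which binds bile acids inside ileal cells, were 2832, 3974 and 3084 CPM in D3, against 3041, 6498 and 7139 in SBM and 6837, 7283 and 7740 in FM (−0.95 ± 0.30). The gene amn, for part of the receptor complex for protein and cobalamin uptake, was at 105, 147 and 115 CPM in D3, against 100, 240 and 246 in SBM and 269, 288 and 318 in FM (−0.96 ± 0.30). SBM library 1 was the library at the D3 level for both genes.

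With SBM library 1 and D3 library 3 left out, 15 of the 18 lysosome-rich members and 13 of the 31 peptide members lay below every other library, as did 9.66% of all tested genes. The lysosome-rich median was then −0.84, and the peptide median −0.52. This setting drops SBM library 1, the one at the D3 level. Its centred lysosome-rich level was −0.74, against −0.41, −0.24 and −0.57 in D3. Removing it takes away the overlap, so these counts do not show separation from SBM. Members were counted in this setting after the data were seen. SBM library 1 and D3 library 3 were the ones high in oocyte genes, and whether they bear on these lists was not tested.

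Clock genes lay on both sides. Of 38 tested, 1 had an unadjusted p under 0.05 on the high side and 9 on the low side, beside 2.59% and 4.13% of all tested genes. The median was −0.03. Levels of per1b, a period repressor, were 31.7, 27.2 and 26.2 CPM in D3, against 34.8, 50.3 and 46.5 in SBM and 46.7, 51.6 and 55.8 in FM (−0.74 ± 0.17). The gene per2, a light-induced period gene of zebrafish, was at 31.3, 27.9 and 26.7 CPM in D3, against 32.9, 33.03 and 32.9 in SBM and 41.3, 49.7 and 53.3 in FM (−0.48 ± 0.14). With dbpa (−1.05 ± 0.34), a clock output activator, and the nuclear receptor gene rorb (−0.98 ± 0.42), these lay below every other library. Of all tested genes 1.42% did.

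Above every other library were nfil3-5 and the cryptochrome genes cry1bb (0.37 ± 0.20) and cry4 (0.23 ± 0.14), beside 0.746% of all tested genes. The level of cry1bb was 24.9, 23.6 and 25.2 CPM in D3, against 23.3, 23.2 and 17.9 in SBM and 11.6, 18.1 and 21.0 in FM, so the step to SBM was small. The repressor gene bhlhe41 (−0.95 ± 0.25) and the output activator gene tefa (−0.65 ± 0.19) were lower with overlap. Of the 7 separated members, library size alone kept nfil3-5, per1b and dbpa. The hour of sampling is not in the labels, and its part in these values was not tested.

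**Figure D5:**
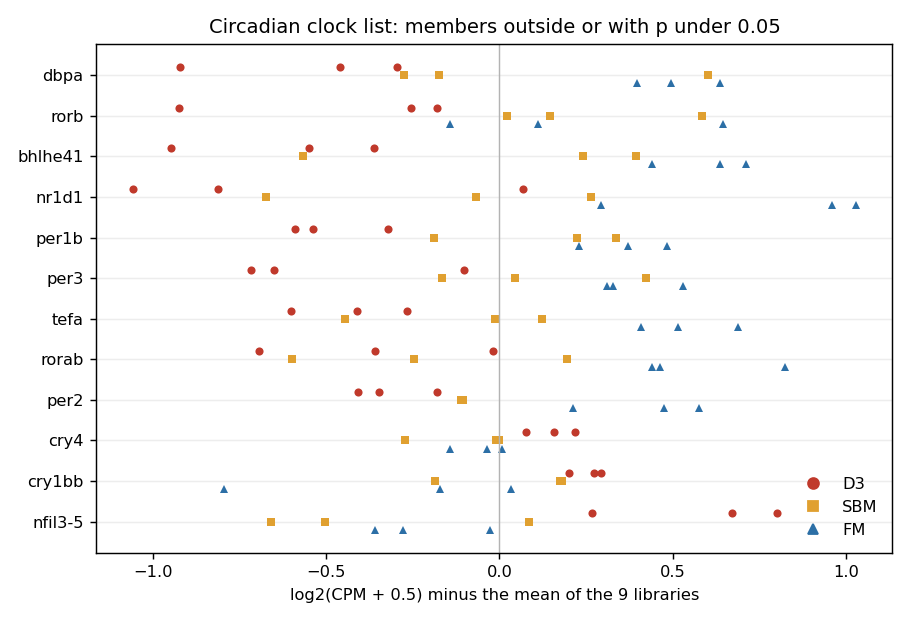
The 12 circadian clock genes that were separated in D3 or had an unadjusted p under 0.05, each point 1 library on log2(CPM + 0.5) minus the gene's mean. D3 points lie at the left for dbpa, rorb, per1b and per2 and at the right for nfil3-5, cry1bb and cry4.

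Immediate early genes, which respond within minutes to stimuli and to handling, had 31 of 37 tested below 0, where 44.6% of all tested genes were. The median was −0.29 against both, −0.09 against SBM and −0.58 against FM, and −0.53 for SBM over FM. Levels of nr4a1, a nuclear receptor of this class, were 4.29, 4.46 and 4.74 CPM in D3, against 12.36, 8.75 and 6.51 in SBM and 33.5, 12.1 and 13.9 in FM (−1.59 ± 0.38). D3 values of nr4a1 were tight and below all others. It was the 1 separated member, beside 1.42% of all tested genes. The transcription factor gene atf3 (−1.03 ± 0.41) overlapped SBM.

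Proliferation genes lay above the pool of SBM and FM, but not evenly over the groups. Of 61 tested, 58 were above 0 and 13 had an unadjusted p under 0.05, all higher. Among all tested genes 55.4% were above 0, and 2.59% reached that p on the high side. The list median was 1.11 against both, 0.19 against SBM and 1.83 against FM. The gene cenpf was the 1 separated member, where 0.746% of all tested genes lay above every other library. Its level was 15.7, 11.4 and 10.5 CPM in D3, against 9.09, 5.06 and 7.82 in SBM and 6.26, 3.47 and 3.40 in FM. The gene rrm2, for a subunit of the enzyme that makes DNA precursors, was at 66.8, 56.0 and 360 CPM in D3, against 13.0, 14.4 and 63.0 in SBM and 18.4, 22.2 and 19.2 in FM (2.72 ± 0.68). D3 library 3 led rrm2, with a log2 fold change of 1.30 without it, and D3 library 2 lay below SBM library 3.

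The proliferation list summed to 1528, 1210 and 5143 CPM in D3, against 4279, 778 and 1500 in SBM and 817, 629 and 767 in FM. Its 2 highest libraries were the 2 highest in oocyte genes. Without D3 library 3 the list median was 0.13. Without both it was 0.60 and rrm2 had a log2 fold change of 1.12, and 9 of 61 members lay above every other library, beside 6.82% of all tested genes. This setting drops SBM library 1, which lay above D3 libraries 1 and 2 in this list, so the count does not show separation from SBM.

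Complement genes, most of them made by liver, had 29 of 31 above 0, 9 of them with an unadjusted p under 0.05. Over all tested genes, 55.4% lay above 0 and 2.59% reached that p on the high side. The complement median was 2.01 against both, 0.60 against SBM and 2.88 against FM. Levels of c3a.1, a gene for the central component C3, were 1040, 8562 and 86.8 CPM in D3, against 399, 1968 and 19.9 in SBM and 57.8, 127 and 25.2 in FM (3.78 ± 1.38). This gene is also in the hepatocyte list, so its high level in the libraries high in hepatocyte genes is partly built in. For c3a.1, D3 library 3 lay below FM library 2. Without D3 library 2 the complement median was 0.45 and c3a.1 was at 1.26. Without all 3 of those libraries it was −0.77, c3a.1 was at −0.52 and c7b at 4.15.

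Inflammatory genes gave no common direction. Of 26 cytokine and chemokine genes, 2 had an unadjusted p under 0.05 on the high side and 3 on the low side, beside 2.59% and 4.13% of all tested genes. The median was −0.35 against both, −0.09 against SBM and −0.71 against FM, and −0.20 against both without D3 library 3. The gene il1b, for a key inflammatory cytokine, was at 26.8, 11.4 and 2.90 CPM in D3, against 5.47, 7.87 and 8.40 in SBM and 5.93, 5.28 and 5.98 in FM (1.09 ± 0.53). D3 held both its highest and its lowest library, and without D3 library 1 the log2 fold change was 0.15. The gene tnfa, for tumour necrosis factor, was at 1.27, 0.520 and 0.719 CPM in D3, against 0.677, 1.27 and 2.58 in SBM and 2.57, 1.36 and 3.85 in FM (−1.24 ± 0.55), with overlap. The neutrophil-attracting chemokine gene cxcl8a overlapped too (−0.57 ± 0.42, or −0.19 without D3 library 3).

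The gene mmp9, for a matrix protease of neutrophils and macrophages, was the inflammatory gene above every other library, at 9.19, 6.65 and 6.18 CPM in D3, against 4.23, 4.05 and 2.03 in SBM and 1.75, 4.07 and 4.43 in FM (1.098 ± 0.35). The collagenase gene mmp13a was at 23.3, 9.20 and 1.17 CPM in D3, against 2.83, 3.20 and 1.53 in SBM and 1.09, 1.63 and 1.52 in FM (2.57 ± 0.68, or 1.46 without D3 library 1). The level of mmp13a was high in D3 libraries 1 and 2 and within the other groups in D3 library 3. A chemotactic protein gene, lect2l, was high in D3 library 2 alone, at 26.2, 317 and 7.14 CPM in D3, against 25.7, 9.30 and 7.77 in SBM and 16.4, 8.45 and 5.73 in FM (3.27 ± 0.97, or 0.45 without that library). Of 18 neutrophil genes, 13 were above 0 and 3 had an unadjusted p under 0.05, all higher. Over all tested genes these shares were 55.4% and 2.59%. The neutrophil median was 0.34, or 0.11 without D3 library 2. Without the 3 libraries high in hepatocyte genes it was −0.59, mmp13a was at −0.64, and mmp9 stayed higher at 0.86.

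In the matrix remodelling list of 24, which shares mmp9 and mmp13a with the neutrophil list, 10 were above 0, where 55.4% of all tested genes were. The list median was −0.17, or −0.04 without SBM library 2. The gene mmp2, for a protease of stromal cells, lay below every other library, at 31.0, 29.2 and 28.7 CPM in D3, against 31.5, 46.4 and 31.4 in SBM and 39.9, 38.9 and 38.7 in FM (−0.35 ± 0.17).

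Interferon-stimulated genes had 24 of 31 below 0, 9 of them with an unadjusted p under 0.05, and none separated. The shares over all tested genes were 44.6% below 0 and 4.13% at that p on the low side. The list median was −0.48 against both, −0.10 against SBM and −1.05 against FM, and −0.30 against both without D3 library 3. The antiviral gene rsad2 was at 16.6, 16.5 and 12.9 CPM in D3, against 12.9, 131 and 11.4 in SBM and 201, 119 and 74.5 in FM (−2.43 ± 0.85). D3 was low together with SBM libraries 1 and 3, and without SBM library 2 the log2 fold change was −1.38. The gene psmb8a, for an immunoproteasome subunit that interferon induces, was at 41.8, 27.7 and 37.8 CPM in D3, against 72.0, 60.8 and 136 in SBM and 35.4, 95.5 and 154 in FM (−1.37 ± 0.47), so it overlapped with FM library 1 alone. This was opposite in sign to the constitutive subunits above.

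For some genes the difference between D3 and the pooled libraries came from 1 of the 2 groups, with D3 close to the other. Levels of hmox1a, the haem oxygenase that responds to oxidative stress, were 24.6, 20.2 and 12.5 CPM in D3, against 29.6, 26.7 and 12.2 in SBM and 232, 140 and 121 in FM. Its log2 fold change was −1.68 ± 0.38 against both, −0.25 ± 0.41 against SBM and −3.11 ± 0.44 against FM, so D3 sat with SBM. The gene cyp2x7, for a cytochrome P450, was at 8.47, 14.0 and 22.6 CPM in D3, against 33.2, 14.9 and 6.03 in SBM and 1.98, 2.11 and 1.13 in FM (1.42 ± 0.50), again alongside SBM. Levels of ero1a, an oxidase of protein folding in the endoplasmic reticulum, were 50.4, 48.6 and 45.8 CPM in D3, against 20.7, 28.1 and 30.1 in SBM and 53.7, 39.3 and 41.9 in FM (0.49 ± 0.17). There D3 sat within FM and above SBM.

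Xenobiotic metabolism genes had 33 of 54 below 0, where 44.6% of all tested genes were, and none separated. An unadjusted p under 0.05 was reached by 2 on the high side and 5 on the low side, beside 2.59% and 4.13% of all tested genes. The median was −0.14 against both, 0.00 against SBM and −0.35 against FM, and 0.07 against both without SBM library 2. The transporter gene abcb4 was at 527, 628 and 462 CPM in D3, against 564, 830 and 737 in SBM and 1101, 1397 and 1124 in FM (−0.78 ± 0.21). D3 libraries overlapped SBM at the low end. In a panel of 23 genes of inflammation, barrier and signalling that an earlier account of these data had used, 4 had an unadjusted p under 0.05 on the high side (c7b, mmp9, mmp13a and ero1a) and 2 on the low side (hmox1a and vegfaa, a vessel growth factor gene, −0.61 ± 0.22). The other 17 did not, among them il1b, tnfa, cxcl8a and the pyruvate kinase gene pkma (0.25 ± 0.17). Beside the panel, 2.59% of all tested genes reached that p on the high side and 4.13% on the low side.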

How the data were processed

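RNA of 9 zebrafish intestine libraries was analysed from the deposited table of raw whole-number counts per gene. The deposited FPKM table holds the same counts divided by a gene length and the library total, as its values show, and gave levels per length only for tables not printed here. The sources used here name no aligner, counter, genome build or strand setting. Reads of overlapping or antisense genes may therefore be mixed, and no coordinates are printed. RefSeq (GRCz12tu) was used for names only.

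Groups came from the titles. Genes were filtered with filterByExpr (minimum count 10), which left 19450 and removed 7533, and scaled by TMM in edgeR 4.0.16 (R 4.3.3). One quasi-likelihood fit had 3 group means, 6 residual degrees of freedom and a common dispersion of 0.255. D3 was contrasted with the mean of SBM and FM, and calls needed a two-sided Benjamini-Hochberg adjusted p under 0.05. SE is the fold change over the square root of F. CPM used TMM-scaled library sizes; totals of about equal size set the counting error, and intervals cover that error only. Limma 3.58.1 (voom) and DESeq2 1.42.0 were alternatives, with other scalings, filters, SBM and FM pooled as 1 group, a replicate block and libraries left out. The code was tested on simulated counts with known changes in D3. In them edgeR called 0 of 67 genes changed 2-fold, 29 of 67 changed 4-fold and 50 of 66 changed 8-fold, with 4 false calls.

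Named genes were the 10 of smallest unadjusted p in each direction among separated genes with a mean CPM of at least 1, the same among genes with ordinary symbols, a panel of 23, and in each list up to 4 of smallest p and the 2 most abundant, of which the text names some. Other separated members of a list were named after their values were seen. Members and lists were chosen with earlier results of these data known. Of 1476 listed symbols, 1357 matched by symbol, 44 by synonym, and 69 did not match.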

Additional observations from a re-analysis of the deposited data

How the results depend on the processing

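EdgeR called 0 genes in each of the 4 comparisons under library size alone, relative log expression factors, both other filters, pooled SBM and FM, and each single library left out; the exception was D3 against FM without the 3 libraries high in hepatocyte genes, with 2053 calls from 1 D3 library assumed to vary like the others. DESeq2 called 41 genes (D3 against both), 5 (D3 against SBM), 909 (D3 against FM) and 113 (SBM against FM). The replicate block gave 0 calls in all 4. Whether equal replicate numbers mark paired samples is unstated. Libraries of equal number, each taken as its deviation from its group mean, correlated at −0.58, 0.52 and −0.03 between D3 and SBM. Between SBM and FM they correlated at 0.07, 0.18 and 0.29, and between D3 and FM at −0.07, 0.02 and −0.07. With 3 values per pair of groups, these cannot settle whether samples were paired.

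Separated genes numbered 172 to 843 above and 308 to 1163 below with single libraries left out, the most above without D3 library 3 and the most below without SBM library 1. They numbered 1326 and 1879 without the pair high in oocyte genes, and 5380 and 5502 without the 3 high in hepatocyte genes, where fewer libraries have to be cleared. Genes near absent from D3 (at most 1 count there, at least 10 in each other), or near exclusive to it by the converse rule, numbered 0. With at most 3 counts allowed there was 1, si:dkey-18p12.4, near absent from D3. At the limit of 1 count there were 0 to 1 with single libraries left out. The 1 came without D3 library 3 and is another gene, since si:dkey-18p12.4 is above that limit in the D3 libraries that remain.

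Without the 3 libraries high in hepatocyte genes the log2 fold changes of 9 genes changed sign: psma3 −0.064, psma8 −0.24, c3a.1 −0.52, c3a.6 −1.07, cfd −0.43, mmp13a −0.64, lect2l −0.92, il1b −1.19 and ccl34a.4 −1.75. The cause was not tested. No other setting turned the sign of a named gene. Of the named genes, 19 passed with DESeq2.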

Other observations

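Other lists gave the values below in D3 against SBM and FM together. Beside them, 55.4% of all tested genes lay above 0 and 44.6% below, and 4.13% were lower at an unadjusted p under 0.05. Cytosolic ribosomal protein genes had 79 of 82 below 0 and no unadjusted p under 0.05. The median was −0.12 against both, 0.05 against SBM and −0.30 against FM. Their median was 0.05 without D3 library 3 and 0.02 under library size alone, and the centred list level was 0.14, 0.08 and −0.48 in D3, against −0.44, 0.33 and −0.34 in SBM and 0.13, 0.28 and 0.31 in FM. Cholesterol biosynthesis genes had 24 of 29 below 0 and a median of −0.31, also without one, and −0.11 without FM library 1. Exocrine pancreas genes had 18 of 19 below 0, 2 of them with an unadjusted p under 0.05, and a median of −0.54, or −0.36 without D3 library 2. Genes of folding and stress in the endoplasmic reticulum had 28 of 37 above 0 and a median of 0.18, which was −0.01 without D3 library 2 and −0.15 without the 3 libraries high in hepatocyte genes. Acute phase genes, 6 of which are also in the hepatocyte list, had 17 of 21 above 0. Their median was 2.09 against both, 0.41 against SBM and 3.68 against FM. Against both it was 0.91 without D3 library 2, and −0.92 without the 3 libraries high in hepatocyte genes. Testis and meiosis genes had a median of 1.08 against both, but −0.78 against SBM and 3.23 against FM. Against both it was −1.43 without D3 library 3, and −1.18 without the pair high in oocyte genes. Toll-like receptor and NF-kB genes (−0.07), JAK-STAT3 genes (0.06) and glycolysis genes (0.00) had medians near that of all genes.

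Single members of further lists lay outside the other 6 libraries. Above lay hspe1 of 25 tested heat shock genes, slc39a11 of 18 zinc and metallothionein genes and lct of 20 carbohydrate genes, beside 0.746% of all tested genes. Below lay jam3b of 31 tight and adherens junction genes, beside 1.42% of all tested genes. Library size alone kept lct and not the others.

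DESeq2 called several genes that D3 did not separate. Among the higher ones itln3, an intelectin, was at 64.1, 2164 and 2.90 CPM in D3, against 24.7, 39.0 and 2.27 in SBM and 2.67, 2.05 and 1.62 in FM. D3 library 2 held its highest value, and that of LOC795897, LOC100007488, LOC101883708, zgc:152945 and cbln11. Plin1, a coat protein of fat droplets, was highest in D3 library 1. These genes were named after their values were seen.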
